A study of Rattus norvegicus with 28 samples.

Results

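Hippocampal gene expression in injured rats treated with Prozac was compared with that in sham-injured rats, using the 3 gene expression arrays titled TBI+Prozac and the 2 titled Sham. These 5 arrays are part of 14 gene expression arrays in a series of 28 arrays. All rats were adult male Sprague-Dawley, each array held the RNA of the whole hippocampus of 1 rat, and tissue was taken 24 h after the procedure. Sham rats had the sham procedure without injury. TBI+Prozac rats had a severe fluid percussion injury, in which a pressure pulse of fluid strikes the exposed dura, and received Prozac 1 h later. Prozac is fluoxetine, a selective serotonin reuptake inhibitor, given by intraperitoneal injection per the study's methods. Another group of 3 rats with the same injury and no antidepressant (TBI) is given beside them throughout. The methods speak of vehicle-treated animals, but the labels do not say which arrays came from them. They also mention dosing after sham injury, and no array in the labels is of a sham-injured rat given Prozac.

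The hippocampus after fluid percussion injury is known for a fast reaction of glia and vessels. Astrocytes build up intermediate filament proteins, microglia and invading monocytes and neutrophils release chemokines and cytokines, damaged vessels let in plasma and set off complement and matrix remodelling, and glial and precursor cells enter the cell cycle. Neurons at the same time lose synaptic, channel and transmitter receptor transcripts.

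Values are log2 of the probe signal over a per-array scaling value, the 75th percentile of that array's detected probes, and are called relative log2 signal below. Differences between groups are on that log2 scale with the standard error (SE) of limma's fit. Between 14676 and 18196 of 30367 probes were above background per array, and 17322 probes entered the tests. Within a group, arrays correlated across probes at 0.985 in Sham and between 0.985 and 0.992 in TBI+Prozac. Both Sham arrays sat alone on 1 slide that was scanned on another day than the injured arrays, so slide and injury cannot be told apart in any comparison with Sham. TBI+Prozac replicate 1 shared a slide with the 3 TBI arrays and TBI+Prozac replicates 2 and 3 sat on the remaining slide. Sham replicate 2 lay above Sham replicate 1 in 175 of the 233 genes of 10 injury and proliferation lists (75.1%, median difference 0.248), against 50.2% of all kept probes (median 0.00211).

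The tissue label was checked against its markers. Of 12 hippocampal neuron markers, 11 had a probe on the array, and 10 had one detected throughout 1 or more groups, as the tests required. These 10 were above background on every array of the 3 groups, a count which that requirement favours. Their summed signal relative to the 75th percentile was 25.8 to 29.7 in TBI+Prozac, 23.1 to 27.7 in Sham and 20.1 to 24.8 in TBI. Choroid plexus genes varied within groups, with sums of 1.87 to 94.8 in TBI+Prozac, 2.25 to 32.1 in Sham and 1.92 to 32.8 in TBI. Ttr, the choroid plexus thyroxine carrier, had relative log2 signals of 6.44, -2.61 and -2.63 in TBI+Prozac and -0.83 and 4.86 in Sham. The high Ttr array was thus 1 in each group, and no choroid plexus, blood or ependyma gene passed the test (limma, 1 ependyma gene at an unadjusted p under 0.05). In whole tissue, fewer cells of a type and less RNA per cell cannot be told apart.

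In TBI+Prozac against Sham, 2579 of 17322 probes (14.9%) passed an adjusted p of 0.05 (limma, Benjamini-Hochberg), of which 2031 (11.7% of all) were higher with injury and Prozac and 548 (3.16%) lower. The same test of TBI against Sham passed 2879 probes (16.6%), 1438 higher (8.3%) and 1441 lower (8.32%). The median difference over all kept probes was 0.143 for TBI+Prozac and 0.0015 for TBI against Sham, and -0.019 and -0.0178 after quantile normalization, so that differences near these values carry no direction. The share of TBI+Prozac calls that were higher was 78.8% here, 59.1% with normexp background correction, 51.8% with quantile normalization, 44.9% with the percentile taken over all probes and 43.4% in the authors' series table. Quantile normalization gave 3267 calls (18.9%), 1691 higher (9.76%) and 1576 lower (9.1%), among them 2089 of the 2579 probes. Leaving out Sham replicate 1 left 711 calls, leaving out Sham replicate 2 left 1074, and leaving out TBI+Prozac replicate 1 or 3 left 1325 or 1483.

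The largest differences were taken among genes past the threshold, above background on all 5 arrays and without overlap of TBI+Prozac and Sham. Among the 10 genes with the largest rise were acute phase, cytoskeletal, stress and macrophage genes, each between 11.1 and 35.8 times its Sham level. The most increased was Serpina3n, a secreted serine protease inhibitor of reactive astrocytes. Its relative log2 signals were 1.91, 0.85 and 1.26 in TBI+Prozac, -4.95 and -2.69 in Sham, and 1.47, 4.29 and 0.23 in TBI. The injured groups overlapped each other and both lay above Sham. The difference from Sham was 5.16 (SE 1.11, adjusted p = 0.0109, limma), or 35.8-fold, and with Sham replicate 1 left out its adjusted p was 0.110. The 250 bases before the annotated start of Serpina3n are shown because STAT3 is a known driver of astrocyte acute phase genes and the list of STAT3 signalling genes is described below. The sequence is from RefSeq (GRCr8, chr6:129088142-129088391, plus strand), and capitals mark the single match to the STAT motif TTCNNNGAA, which reads the same way on both strands and occurs in 7.52% of 27457 rat promoter windows of this length.
Serpina3n: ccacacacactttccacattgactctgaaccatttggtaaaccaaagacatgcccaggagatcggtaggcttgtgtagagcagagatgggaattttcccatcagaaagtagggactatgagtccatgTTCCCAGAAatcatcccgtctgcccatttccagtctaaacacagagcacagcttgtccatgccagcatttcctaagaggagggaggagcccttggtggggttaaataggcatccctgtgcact

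Timp1, an inhibitor of matrix metalloproteinases, was at 2.40, 1.68 and 2.37 in TBI+Prozac, -3.15 and -1.99 in Sham, and 2.30, 2.54 and 2.60 in TBI. All injured arrays lay more than 3 log2 units above both Sham arrays, and Timp1 rose by 4.72 (SE 0.38, adjusted p = 5.28e-05, limma). Tubb6, a beta-tubulin, was at -0.08, -0.40 and -0.29 with Prozac against -5.21 and -4.48 in Sham and -0.06, 0.19 and -0.42 in TBI. Its rise of 4.59 (SE 0.25, adjusted p = 2.8e-06, limma) had the smallest SE of the 10. Hspb1, the small heat shock protein HSP27, was at 3.38, 2.51 and 2.77 with Prozac against -2.48 and -0.86 in Sham and 2.77, 3.77 and 2.84 in TBI, a rise of 4.56 (SE 0.54, adjusted p = 0.000632, limma).

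The phagocyte genes in this group behaved alike. Lgals3, the galectin of activated microglia and macrophages, was at 1.21, 1.34 and 2.17 with Prozac, -3.04 and -2.14 in Sham and 1.82, 1.72 and 1.40 in TBI, so that injured arrays with and without Prozac covered the same range, well clear of Sham (4.17, SE 0.36, adjusted p = 7.67e-05, limma). S100a9, a calprotectin subunit of neutrophils and monocytes, was at -0.52, -1.86 and -0.66 with Prozac, -4.79 and -4.65 in Sham and -0.77, 0.65 and -2.06 in TBI. It rose by 3.71 (SE 0.61, adjusted p = 0.00328, limma) and varied more among injured rats than between the Sham rats. The remaining genes of the 10 were H19, an imprinted long noncoding RNA (4.26), the mitotic kinase Cdk1 (3.65), Aspg, an asparaginase (3.61), and Vim, the intermediate filament vimentin (3.48). All 10 also passed in TBI against Sham, and their TBI+Prozac minus TBI differences ran in both directions, with none past the threshold.

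A further set was above background on all TBI+Prozac arrays and on no Sham array, so only a lower bound could be given for the fold. Ccl7, a chemokine that attracts monocytes, was at 0.03, -1.37 and -0.41 with Prozac, -7.43 and -6.75 in Sham and -0.41, -0.59 and -1.65 in TBI. It was at least 54.8-fold higher than Sham (adjusted p = 0.000706, limma), taking for each Sham array the lowest signal among probes above background where that was higher than the probe's own. The bound for TBI over Sham was 44.5-fold. The other 4 of the 5 largest bounds were 39.7-fold for Igsf7 l1, 18.99 for Fcrl2, an Fc receptor-like gene, 17.3 for Slpi, a secreted leukocyte protease inhibitor, and 12.1 for Cxcl13, a chemoattractant of B cells. The promoter window of Ccl7 (RefSeq, GRCr8, chr10:67513845-67514094, plus strand) is shown because NF-kB is a known activator of chemokine genes. Capitals mark its match on the reverse strand to the NF-kB motif, searched as GGGA, 4 bases of any kind and CC. That motif occurs on either strand in 16.8% of all promoter windows, in 21.4% of those of the measured genes and in 6 of the 16 chemokine list genes with a window (37.5%).
Ccl7: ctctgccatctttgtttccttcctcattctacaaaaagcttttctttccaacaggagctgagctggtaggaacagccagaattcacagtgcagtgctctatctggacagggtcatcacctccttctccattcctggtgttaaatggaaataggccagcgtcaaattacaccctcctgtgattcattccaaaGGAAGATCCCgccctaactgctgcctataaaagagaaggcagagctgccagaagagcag

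**Figure D1:**
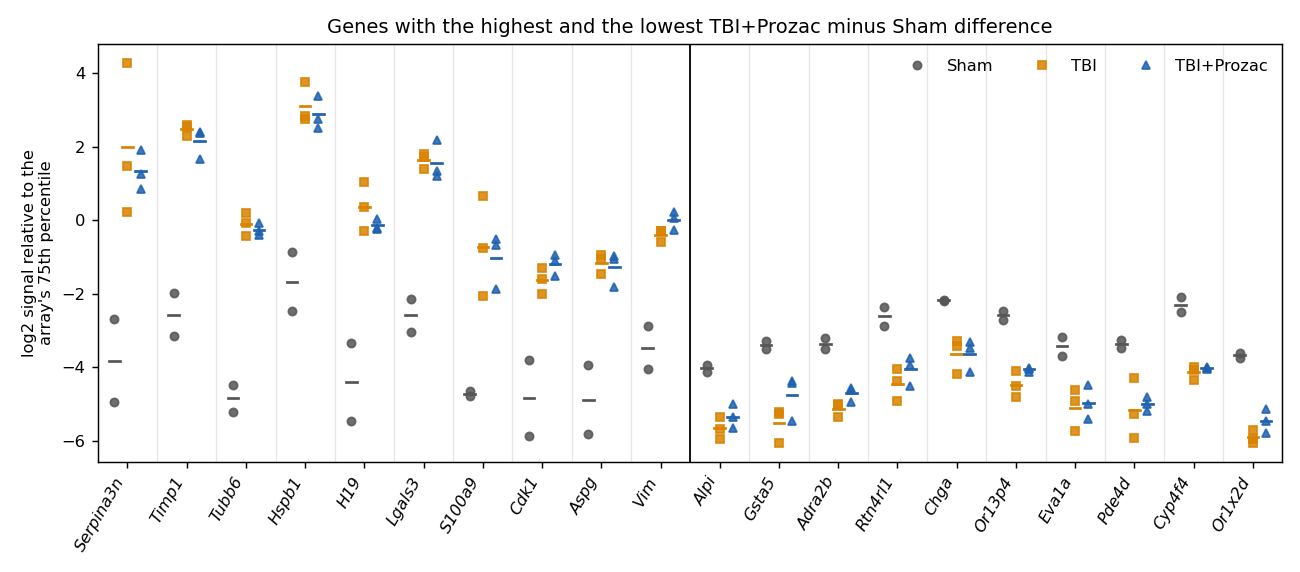
Relative log2 signal per array of the 10 genes with the highest and the 10 with the lowest TBI+Prozac minus Sham difference among those above background on all 5 arrays, with Sham as grey circles, TBI as orange squares, TBI+Prozac as blue triangles and group means as short bars. The genes were chosen to have no overlap between TBI+Prozac and Sham. TBI arrays lie on the same side of both Sham arrays as TBI+Prozac for each gene, and Serpina3n shows the widest spread in TBI, from 0.23 to 4.29.

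Under this scaling fewer probes were lower than Sham than higher, and the largest falls were smaller than the largest rises. With the percentile taken over all probes, 1593 were higher and 1955 lower. Cyp4f4, a cytochrome P450 of the fatty acid hydroxylase family, was at -3.99, -4.02 and -4.05 in TBI+Prozac, -2.10 and -2.50 in Sham, and fell by 1.72 on the log2 scale (adjusted p = 0.00135, limma). Chga, the secretory granule protein chromogranin A, was at -4.14, -3.48 and -3.31 with Prozac against -2.16 and -2.18 in Sham and fell by 1.47 (adjusted p = 0.00842, limma; 0.0601 without Sham replicate 1). Adra2b, an alpha-2 adrenergic receptor, was at -4.94, -4.63 and -4.55 against -3.50 and -3.21 in Sham and -5.36, -5.01 and -5.02 in TBI. It fell by 1.35 (adjusted p = 0.0015, limma) and passed with either Sham array left out. All TBI+Prozac arrays lay below both Sham arrays for these 3 genes, as the rule that chose them required.

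The other 7 lowest were the olfactory receptors Or1x2d (-1.79) and Or13p4 (-1.47), the cAMP phosphodiesterase Pde4d (-1.62), Eva1a (-1.53), the Nogo receptor relative Rtn4rl1 (-1.45), the glutathione transferase Gsta5 (-1.35) and the alkaline phosphatase Alpi (-1.31). Other probes of Pde4d and Rtn4rl1 gave 0.34 and 0.24 and did not pass, so these genes have no settled direction. Among genes above background on both Sham arrays and on no TBI+Prozac array, the 5 largest bounds were at least 2.21 to 3.34-fold higher in Sham. They were for Adrb3 (3.34), Tbxt (2.39), Ash1l (2.38), Or8h7 (2.25) and Hormad2 (2.21).

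Injury pathways were described through 44 gene lists with 797 measured genes, of which 182 were higher and 9 lower than Sham in TBI+Prozac, against 12.4% higher and 2.01% lower over the 10220 named genes. In TBI against Sham, 168 list genes were higher and 29 lower, against 9.27% and 5.66% of named genes. In the 10 injury and proliferation lists together, 125 of 233 genes were higher and 2 lower with Prozac, and 116 higher and 1 lower in TBI. Because both comparisons use the same Sham arrays, their values are placed side by side and only TBI+Prozac against TBI tests a difference between them. In that test 1 of 17322 probes passed (0.00577%), and it was in none of the lists; 1742 probes (10.1%) had an unadjusted p under 0.05, 1708 of them higher with Prozac (9.86% of all), at a median TBI+Prozac minus TBI difference over all probes of 0.146.

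The reactive astrocyte list had 13 of 19 genes higher than Sham with Prozac (median difference 2.38) and 16 in TBI (2.42). Lcn2, lipocalin 2, was at 3.49, 3.12 and 3.49 with Prozac, -6.16 and -1.96 in Sham and 3.45, 3.71 and 1.85 in TBI. It rose by 7.42 (SE 0.92, adjusted p = 0.000804, limma), with only 1 of the 2 Sham arrays above background. Gfap, the astrocyte intermediate filament protein, was at 2.00, 2.48 and 1.93 with Prozac, 0.41 and 1.15 in Sham and 2.00, 3.07 and 2.90 in TBI. Its injured arrays were all above Sham, yet the difference of 1.36 with Prozac did not pass (adjusted p = 0.0604, limma) while 1.88 in TBI did (0.0142). The difference of -0.52 between the injured groups did not pass (unadjusted p = 0.218 in the limma fit). None of the 14 homeostatic astrocyte genes passed in either comparison, with medians of -0.10 and -0.34 (limma, 1 and 3 lower at an unadjusted p under 0.05), and after quantile normalization 2 were lower with Prozac and 5 in TBI. The reactive astrocyte list had 11 calls without Sham replicate 1.

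Activated microglia and macrophage genes were higher in 16 of 25 cases with Prozac (median 1.86) and in 17 in TBI (1.67). With the genes that were not above background in Sham set to their bounds, the medians were 1.74 and 1.39. Spp1, osteopontin, was at 0.28, 1.11 and 1.42 with Prozac, -6.31 and -2.03 in Sham and 1.88, 1.34 and 0.42 in TBI, a difference of 5.10 (adjusted p = 0.00839, limma) that had an adjusted p of 0.0798 without Sham replicate 1. Cd14, the lipopolysaccharide co-receptor, was at -0.19, -0.47 and -0.10 with Prozac against -4.54 and -2.71 in Sham and rose by 3.37 (adjusted p = 0.00186, limma). Msr1, a scavenger receptor, was at least 5.08-fold higher. Spp1 was above background on only 1 of the 2 Sham arrays. The list had 6 calls without Sham replicate 1.

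Of 13 homeostatic microglia genes, 4 were higher with Prozac and 2 in TBI. Itgam, the CD11b integrin of microglia and myeloid cells, was at -1.94, -2.06 and -2.13 with Prozac, -4.36 and -3.78 in Sham and -2.86, -2.82 and -3.39 in TBI. The 3 groups did not overlap, with TBI between the others, and Itgam rose 4.07-fold (2.02, SE 0.28, adjusted p = 0.0015, limma), also with any single array left out. The TBI difference from Sham was 1.05 (adjusted p = 0.0254) and the difference between the injured groups was 0.97 (unadjusted p = 0.00226, adjusted 0.266, limma). Ptprc, the CD45 phosphatase of leukocytes, rose in both (1.77 and 1.55). Csf1r, the receptor for colony stimulating factor 1, was 0.86 (adjusted p = 0.0194) with Prozac and 0.63 (0.0631) in TBI, and the microglial actin-binding protein Aif1 0.80 (0.0441) and 0.70 (0.0698), all by limma; after quantile normalization both passed in TBI as well (0.0463 and 0.0424). The resting-state markers P2ry12 (0.02), Tmem119 (-0.44) and Cx3cr1 (0.51) did not pass with Prozac.

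Chemokines and their receptors were higher in 10 of 21 cases in both comparisons, with medians of 1.69 and 1.67, or 1.16 and 1.37 with genes not above background in Sham at their bounds. Ccl2, the main monocyte attractant, was at 0.34, -0.31 and 0.64 with Prozac, -7.12 and -5.11 in Sham and 0.80, 0.36 and -0.84 in TBI, a rise of 6.34 (SE 0.86, adjusted p = 0.00135, limma) with 1 of 2 Sham arrays above background. Cxcl1, a neutrophil attractant, was at least 9.25-fold higher. Without Sham replicate 2 the list had 6 calls. Neutrophil genes were higher in 3 of 6 cases with Prozac, among them S100a8 (3.21, adjusted p = 0.0128, limma), with 1 of 2 Sham arrays above background. The summed signal of the neutrophil genes was 0.863 to 1.79 in TBI+Prozac against 0.267 to 0.302 in Sham. Of 3 lymphocyte genes 1 passed, Cd8a of cytotoxic T cells (adjusted p = 0.0391, limma), which was above background on 2 of 3 TBI+Prozac arrays and on no Sham array.

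In interleukin, TNF and STAT3 signalling, 10 of 25 genes were higher and 1 lower with Prozac (median 0.65), and 12 higher in TBI (0.78). Tnfrsf12a, the TWEAK receptor, rose by 3.15 (adjusted p = 0.00211, limma) and Bcl3, a nuclear NF-kB regulator, by 2.73 (0.00852). Bcl3 was above background on only 1 of the 2 Sham arrays. The cytokine Il1b was at least 3.89-fold, its receptor antagonist Il1rn at least 6.19-fold and its decoy receptor Il1r2 at least 4.51-fold higher than Sham. Il1a, the other interleukin 1, was at -6.76, -6.99 and -6.70 with Prozac, where no array was above background, against -5.68 and -5.61 in Sham. It was the member that fell, at least 1.90-fold higher in Sham (adjusted p = 0.021, limma), and its TBI difference of -0.65 did not pass. Tnf (0.49) and Stat3 (0.62) did not pass with Prozac. The list had 3 higher calls without Sham replicate 1.

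Complement genes were higher in 9 of 18 cases with Prozac (median 0.87) and 10 in TBI (0.97). C3, the central component, was at 0.48, 0.23 and 0.91 with Prozac, -2.02 and -1.29 in Sham and 0.36, 0.83 and 0.26 in TBI. The injured groups shared 1 range above Sham, and C3 rose by 2.19 (SE 0.25, adjusted p = 0.000532, limma). Serping1, the C1 inhibitor (2.79), C1s, a protease of the classical pathway (2.56), and C5ar1, the anaphylatoxin receptor (2.03), also rose in both groups. Without Sham replicate 1 the list had 5 calls.

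Interferon-stimulated genes were higher in 13 of 23 cases with Prozac (median 1.14) and 8 in TBI (0.88). Ifitm3, an antiviral membrane protein, was at 0.02, -0.60 and -0.27 with Prozac, -3.86 and -2.30 in Sham and -0.28, -0.15 and -0.61 in TBI, a rise of 2.79 (SE 0.41, adjusted p = 0.00186, limma). The GTPase Gbp2 (2.62), Ifitm1 (2.47) and the ubiquitin-like Isg15 (2.46, adjusted p = 0.0536 without Sham replicate 1) rose in both. Eif2ak2, Irf9, Gbp5 and Oas1a were among those that passed with Prozac and not in TBI. After quantile normalization the counts were 11 and 13, with 12 of 23 genes above TBI, so the order of the 2 groups turned with the scaling. Without Sham replicate 1 the list had 3 calls. Of the 17 list genes with a promoter window, 6 held TTCNNNGAA (35.3%).

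Antigen presentation genes were higher in 13 of 21 cases with Prozac (median 0.97) and 10 in TBI (0.90), and after quantile normalization in 10 and 11. RT1-Da, a class II chain, was at -2.37, -2.29 and -0.73 with Prozac against -4.98 and -4.53 in Sham and rose by 2.96 (SE 0.56, adjusted p = 0.00611, limma). Cd74, the class II invariant chain, was at -0.78, -0.91 and 0.45 against -2.85 and -2.23 (2.13, adjusted p = 0.0146). In both genes TBI+Prozac replicate 3 was the highest of the 3. Psmb9, a subunit of the immunoproteasome, rose by 1.89 (adjusted p = 0.00128, limma) and by 1.85 in TBI. RT1-CE7, a class I gene, was 1.78 (0.0392, or 0.0539 after quantile normalization) with Prozac and 0.79 (0.333) in TBI; RT1 genes are near-identical copies whose probes may share signal. This list had 1 call without Sham replicate 1.

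Extracellular proteolysis and matrix genes were higher in 13 of 31 cases and lower in 1 with Prozac (median 0.97), and 12 and 1 in TBI (0.92), with medians of 0.63 and 0.68 at the bounds. After quantile normalization 9 were higher with Prozac and 14 in TBI, so the order of the 2 groups turned with the scaling. Besides Timp1, the metalloproteinase Mmp19 was at least 2.51-fold higher (adjusted p = 4.81e-05, limma), and the proteoglycan-cleaving Adamts1 rose by 2.39 (0.0157). Bcan, the brain proteoglycan brevican, was at 2.23, 2.31 and 2.38 with Prozac, below 3.10 and 2.96 in Sham, and fell by 0.72 (adjusted p = 0.0392, limma) beside a fall of 0.83 in TBI. The list had 3 higher calls without Sham replicate 1. Meningeal and fibroblast genes, which share matrix genes, had 1 of 13 call (Mgp, a mineralisation inhibitor, 1.35), with sums of 4.81 to 8.79 in TBI+Prozac against 3.62 to 4.86 in Sham; their part in the matrix result was not tested.

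**Figure D2:**
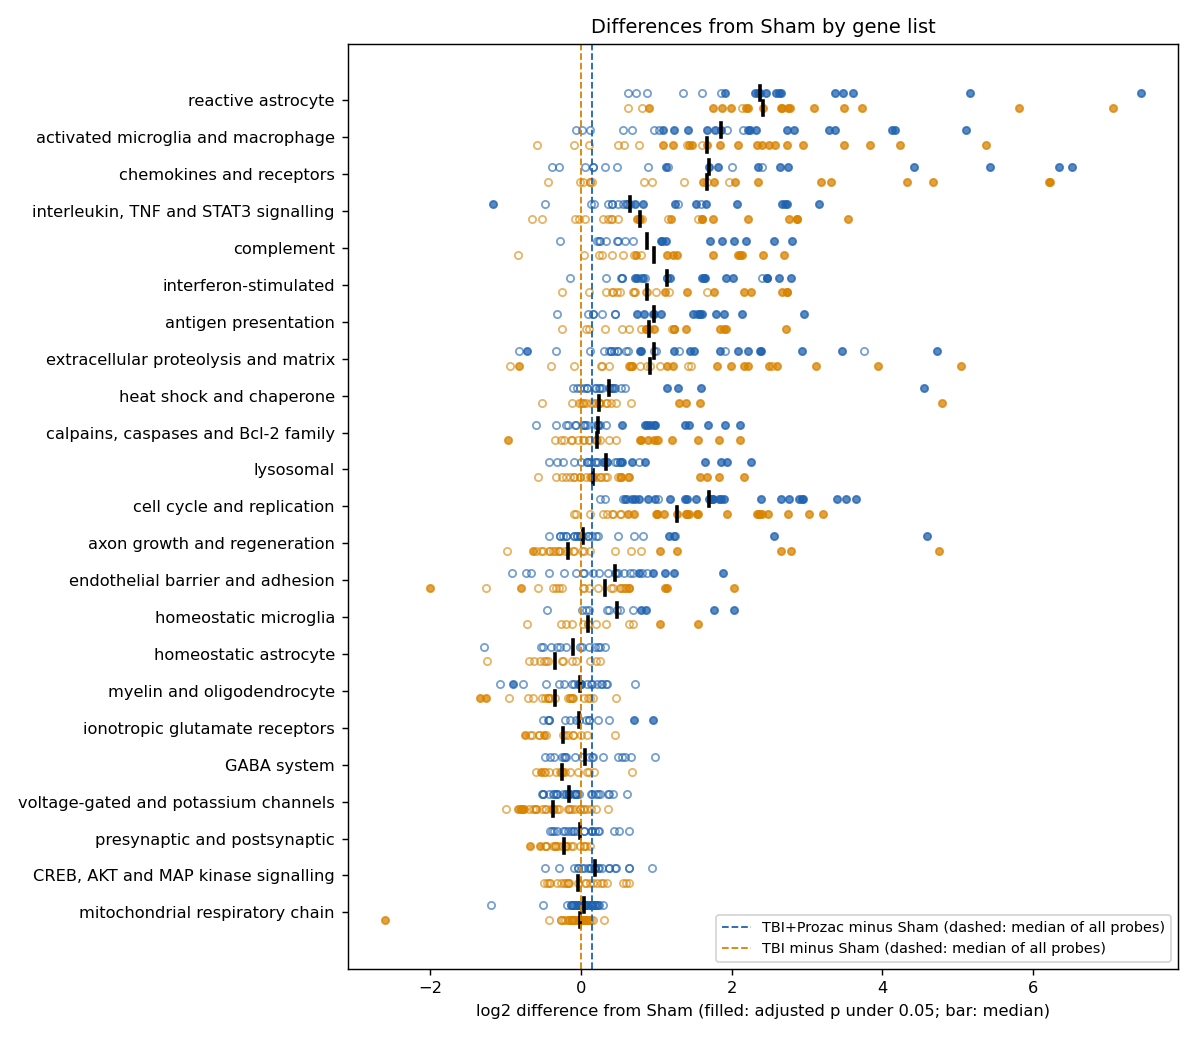
Log2 differences from Sham for the genes of 23 lists, with TBI+Prozac minus Sham in blue and TBI minus Sham in orange, filled points for an adjusted p under 0.05, black bars for list medians and dashed lines for the median of all kept probes. List medians of both colours lie to the right of Sham in the reactive astrocyte, activated microglia, immune, matrix and cell cycle lists. The mitochondrial medians lie near the dashed lines (0.03 with Prozac and -0.01 in TBI). Medians below the dashed lines include those of homeostatic astrocyte (-0.10 and -0.34), channel (-0.16 and -0.37) and myelin genes (-0.01 and -0.34).

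Stress responses passed in fewer members. Besides Hspb1, 3 of 23 heat shock and chaperone genes rose in both groups: Hspb8 (1.59), Hspa2 (1.29) and the collagen chaperone Serpinh1 (1.14). Of 27 Nrf2 antioxidant and metal genes 5 were higher in each (5 and 10 after quantile normalization), including metallothionein Mt2A (1.37), peroxiredoxin Prdx1 (0.66) and the glutathione peroxidase Gpx1 (0.66). Keap1, the Nrf2 inhibitor, passed with Prozac (0.61) and not in TBI (0.39, adjusted p = 0.143, limma; 0.0355 after quantile normalization), while Hmox1, heme oxygenase 1, was 2.15 (0.0579) with Prozac and 2.34 (0.0383) in TBI. In the unfolded protein and integrated stress response list, 3 of 22 rose with Prozac, near the share over all named genes (12.4%). In TBI 4 rose, where 9.27% of named genes did so. They were led by the transcription factor Atf3, at -1.92, -3.12 and -2.62 with Prozac against -5.23 and -4.99 in Sham and -2.67, -1.87 and -2.45 in TBI (2.56, adjusted p = 0.00585, limma; 0.0536 without Sham replicate 1).

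Calpains, caspases and the Bcl-2 family had 11 of 27 genes higher with Prozac (median 0.23) and 9 higher and 1 lower in TBI (0.21). The survival genes Bcl2a1 and Birc3 were at least 1.62-fold and 2.12-fold higher than Sham. The inflammatory caspases Casp4 (1.68) and Casp1 (1.43) also rose in both groups. Capns1, the small regulatory subunit of the calpains, was at 0.79, 0.75 and 0.49 with Prozac, -0.07 and 0.34 in Sham, a difference of 0.54 (adjusted p = 0.0297, limma) against 0.10 (0.695) in TBI, and 0.44 between the injured groups (unadjusted p = 0.00575, adjusted 0.343). Its adjusted p against Sham was 0.0572 after quantile normalization, and it passed in 2 of the 5 fits that left out an array. After quantile normalization 10 genes of the list were higher and 2 lower, and without Sham replicate 1 it had 2 higher calls. Of 13 p53 and growth arrest genes 2 were higher with Prozac, near the share over all named genes (12.4%), and 3 were higher and 1 lower in TBI. The 2 were Gadd45a, a DNA damage response gene (2.57), and the p53 target nuclease Aen (0.79). Aen did not pass with Prozac after quantile normalization (adjusted p = 0.0584, limma).

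Lysosomal genes were higher in 7 of 31 cases with Prozac and 6 in TBI. The proteases Ctsc (2.25) and Ctsz (1.93), the macrophage protein Cd68 (1.86) and the tetraspanin Cd63 (1.65) rose in both. Endothelial barrier and adhesion genes were higher in 5 of 24 cases with Prozac, with Lrg1 (1.88) and the leukocyte ligand Icam1 (1.11) past the threshold in both. Icam2 passed with Prozac (0.96) and not in TBI (0.42), but was -0.02 with normexp and above background on only 1 of the 2 Sham arrays. Abcg2, an efflux transporter of the blood-brain barrier, had fallen in TBI (-2.004, adjusted p = 0.00994, limma) and was -0.91 (0.192) with Prozac, a difference between the injured groups of 1.09 (unadjusted p = 0.0171 in the limma fit).

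Cell cycle and replication genes were higher than Sham in 26 of 31 cases with Prozac (median 1.70) and 19 in TBI (1.28), and after quantile normalization 21 in each. The medians were 1.379 and 1.004 with the 5 genes not above background in Sham at their bounds. Cdk1 was at -1.52, -1.12 and -0.93 with Prozac, -5.86 and -3.81 in Sham and -1.59, -1.30 and -2.01 in TBI, a rise of 3.65 (SE 0.66, adjusted p = 0.00492, limma; 0.0612 without Sham replicate 1). Mki67, the proliferation antigen Ki-67, was at -2.43, -1.73 and -1.57 with Prozac, -6.35 and -4.51 in Sham and -2.33, -2.10 and -2.77 in TBI (3.52, SE 0.70, adjusted p = 0.00775; 0.0885 without Sham replicate 1). The S and G2 phase cyclin Ccna2 was at -2.92, -2.50 and -2.28 with Prozac against -6.01 and -5.02 in Sham (2.95, SE 0.49, adjusted p = 0.00344, limma). Mki67 and Ccna2 were each above background on only 1 of the 2 Sham arrays. The mitotic cyclins Ccnb1 and Ccnb2 and the replication helicase subunit Mcm6 had bounds over Sham of at least 7.46, 2.39 and 4.76-fold.

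All TBI+Prozac arrays lay above both Sham arrays in 30 of the 31 genes, and all TBI arrays in 26, where 36.7% and 20.9% of all kept probes did so. The group mean was higher with Prozac than in untreated TBI for all 31 genes here, where it was higher for 80.9% of all kept probes. After quantile normalization it was higher for 28 of the genes. The median difference of these genes was 0.41 here, where all probes had 0.146, and 0.23 after quantile normalization, where all probes had 0.00221. None passed (lowest adjusted p = 0.381, limma), and 3 had an unadjusted p under 0.05, Ccnd2 (0.015), Ccne2 (0.0164) and Aurka (0.042). The 5 that did not pass against Sham were Ccnd2 (0.32), Ccnd3 (0.25), Ccne2 (1.02), Mcm4 (0.61) and Mcm7 (0.56). Over all arrays, TBI+Prozac minus TBI was 0.44 for Cdk1, 0.49 for Mki67, 0.47 for Ccna2 and 0.66 for Ccnb2. Within the slide that held TBI+Prozac replicate 1 and the TBI arrays it was 0.11, -0.03, 0.12 and 0.11. The part of the slide in the higher means with Prozac was not tested. The list had 6 calls without Sham replicate 1, and Sham replicate 2 lay above Sham replicate 1 in 26 of the 31 genes (median 0.407).

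The promoter windows of 3 of these genes are shown because mitotic genes are known for CCAAT boxes and a cell cycle homology region (CHR). They are 250 bases before the start from RefSeq (GRCr8): Cdk1 chr20:19265043-19265292 on the plus strand, and Ccnb2 chr8:79981659-79981908 and Mki67 chr1:199952594-199952843 on the minus strand. Capitals mark CCAAT and TTTGAA, searched on both strands, so that CCAAT also appears as ATTGG; in Mki67 an ATTGG and a TTTGAA overlap. Each window held 2 TTTGAA, and CCAAT occurred 3 times in Cdk1 and Ccnb2 and 4 times in Mki67. Of the 21 list genes with a window, 14 held CCAAT (66.7%), against 34.3% of all 27457 windows, 6 held TTTGAA (28.6%, against 16%) and 5 held both, against 5.76% of all windows.
Cdk1: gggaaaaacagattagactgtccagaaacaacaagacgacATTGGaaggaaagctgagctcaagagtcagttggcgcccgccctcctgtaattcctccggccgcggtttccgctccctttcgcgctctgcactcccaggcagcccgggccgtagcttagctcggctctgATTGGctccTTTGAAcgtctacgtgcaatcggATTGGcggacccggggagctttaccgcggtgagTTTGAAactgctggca
Ccnb2: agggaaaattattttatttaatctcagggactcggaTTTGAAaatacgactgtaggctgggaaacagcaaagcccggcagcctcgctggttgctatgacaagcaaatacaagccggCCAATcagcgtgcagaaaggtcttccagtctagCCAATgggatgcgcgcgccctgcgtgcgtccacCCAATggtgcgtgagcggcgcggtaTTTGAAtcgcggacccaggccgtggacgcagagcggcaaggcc
Mki67: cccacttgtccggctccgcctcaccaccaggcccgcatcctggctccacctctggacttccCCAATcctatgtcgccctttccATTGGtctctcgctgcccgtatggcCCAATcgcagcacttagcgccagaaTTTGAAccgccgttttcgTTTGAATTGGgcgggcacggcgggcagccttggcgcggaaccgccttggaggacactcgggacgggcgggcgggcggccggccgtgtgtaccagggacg

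**Figure D3:**
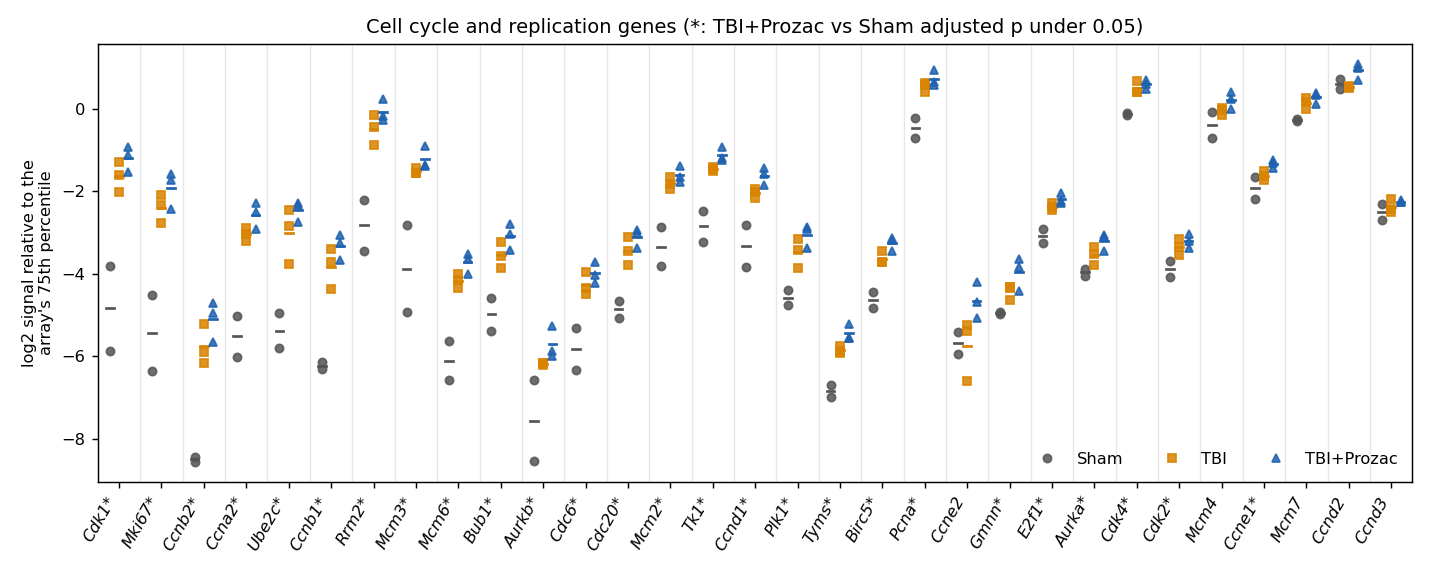
Relative log2 signal per array of the 31 cell cycle and replication genes, ordered by the TBI+Prozac minus Sham difference, with Sham as grey circles, TBI as orange squares, TBI+Prozac as blue triangles and group means as short bars. Stars mark the 26 genes past the threshold. Blue means lie above orange means throughout, mostly by less than the distance from either to Sham. Of all kept probes, 80.9% were also higher with Prozac than in TBI.

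Regeneration and transcription factor lists held single strong members, while their shares of higher genes with Prozac lay near that over all named genes (12.4%). In axon growth and regeneration 4 of 27 genes rose with Prozac and 5 rose and 1 fell in TBI. Tubb6 was the first, followed by Atf3, the neuropeptide Gal (1.24) and the beta-tubulin Tubb2b, at 3.27, 3.31 and 3.59 with Prozac against 2.30 and 2.15 in Sham (1.17, adjusted p = 0.00591, limma). Sprr1a, a cornifin of regenerating axons, was at -5.82, -5.35 and -5.83 with Prozac, -6.59 and -7.25 in Sham and -5.25, -4.52 and -3.04 in TBI. No Sham array was above background. It passed in TBI (at least 4.26-fold, adjusted p = 0.0179) and not with Prozac (0.23), with -1.40 between the injured groups (unadjusted p = 0.035, limma). Immediate early genes passed in 3 of 26 cases with Prozac: Fosl1 (at least 4.59-fold), Myc (1.17) and Maff, which was above background on 2 TBI+Prozac arrays and no Sham array.

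Growth factors that rose were Hbegf (2.27) and Fgf2 (1.39), with the GDNF receptor Gfra1 (1.72). Only 1 of the 2 Sham arrays was above background for Gfra1. Fgf1 fell by 0.61 (adjusted p = 0.0496, limma) beside -1.04 in TBI. The growth factor list's median of 0.25 was -0.01 with normexp. Igfbp2, a binding protein of insulin-like growth factors, rose by 2.12. Among glucocorticoid-responsive genes Tgm2, transglutaminase 2, rose by 1.93, and Sult1a1 and Tsc22d3 (GILZ) fell by 1.26 and 0.66. The clock gene Per3 fell by 0.57 (adjusted p = 0.0455, limma) beside -1.14 in TBI. In the Notch list the effector Rbpj rose by 0.89, and Hes1 passed but was above background on no array of the 3 groups, so that it has no direction here. In the cholesterol list Ch25h, the 25-hydroxylase, rose by 2.21.

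Neuronal lists differed from Sham in few members with Prozac. In the 6 lists of neuronal, signalling and mitochondrial genes together, 2 of 154 genes were higher and 0 lower with Prozac, and 0 higher and 9 lower in TBI (limma). Over all named genes 12.4% were higher and 2.01% lower with Prozac, and 9.27% and 5.66% in TBI. The 9 lower genes in TBI were thus near the share over all named genes. The medians of the 6 lists were 0.016 with Prozac and -0.157 in TBI, each below that of all probes (0.143 and 0.0015). Voltage-gated and potassium channels had 0 of 33 calls with Prozac (median -0.16) and 3 lower in TBI (-0.37), and presynaptic and postsynaptic genes 0 of 22 (-0.01) and 2 lower (-0.23). GABA system genes had 0 of 18 (0.06) and 1 lower (-0.25). After quantile normalization 4, 2 and 3 genes of these lists were lower with Prozac, and 8, 3 and 3 in TBI, with the GABA median then at -0.09. At an unadjusted p under 0.05, limma had 0 channel genes above and 2 below Sham, 2 and 2 synaptic genes and 2 and 2 GABA genes with Prozac, where 29.9% of all probes had one in either direction. In TBI 11, 6 and 5 genes of these lists were below Sham at that level, where 30.8% of all probes had one in either direction. Mitochondrial respiratory chain genes had 0 of 43 calls with Prozac (median 0.03), also 0 at an unadjusted p under 0.05, and 3 lower after quantile normalization with a median of -0.10.

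The 2 higher calls were ionotropic glutamate receptor subunits. Gria1, the AMPA receptor subunit GluA1, was at -0.73, -0.76 and -0.65 with Prozac, -1.63 and -1.20 in Sham and -1.55, -1.41 and -1.03 in TBI. TBI+Prozac lay above all Sham and TBI arrays, which overlapped each other. Gria1 was 1.62-fold its Sham level (0.70, SE 0.20, adjusted p = 0.0338, limma) with 0.09 (0.813) for TBI and 0.61 for the injured groups (unadjusted p = 0.00435, adjusted 0.34). It passed after quantile normalization (0.0384) and in 1 of the 5 fits that left out an array. Grin2a, the NMDA receptor subunit GluN2A, was 0.96 (adjusted p = 0.0308, limma) with Prozac and 0.45 (0.276) in TBI, with an adjusted p of 0.0625 for Prozac after quantile normalization. Grin2d had fallen in TBI (-0.74) and was -0.43 (0.123) with Prozac, where it passed after quantile normalization (-0.59, 0.0251).

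Among serotonin genes, the system Prozac acts on, Htr2b, a 2B receptor, was above background on no Sham array and at least 2.15-fold higher with Prozac (adjusted p = 0.00473, limma). It also passed as higher in TBI (adjusted p = 0.0095, limma), where only 1 of the 3 arrays was above background. Htr5b was at -1.46, -1.07 and -1.11 with Prozac, -0.95 and -0.40 in Sham and -1.56, -1.48 and -1.95 in TBI. It fell in TBI (-0.99, adjusted p = 0.00635) and did not pass with Prozac (-0.54, 0.0909). Sst, the neuropeptide somatostatin, showed the same arrangement (-0.75 with Prozac, -1.48 in TBI, adjusted p = 0.133 and 0.00847, limma). Of 23 myelin and oligodendrocyte genes 1 was lower with Prozac and 2 in TBI, where 2.01% and 5.66% of all named genes were. Gpr17, a receptor of oligodendrocyte precursors, fell with Prozac (-0.90, adjusted p = 0.00909, limma) and in TBI (-1.26). It was above background on 2 of 3 TBI+Prozac arrays and 1 of 3 TBI arrays, so the size of these falls is uncertain. The list median was -0.01 with Prozac and -0.34 in TBI.

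By the threshold, 1280 probes were higher and 525 lower than Sham in both injured groups, and 0 were opposite. A further 774 passed with Prozac and not in TBI (751 higher, 23 lower), and 1074 in TBI and not with Prozac (158 higher, 916 lower). Of the 774, 167 (21.6%) had an unadjusted p under 0.05 in TBI+Prozac against TBI and 502 had one in TBI against Sham. Of the 1074, 406 (37.8%) and 620 did so in TBI+Prozac against TBI and in TBI+Prozac against Sham. The numbers depend on scaling: after quantile normalization 393 and 1593 probes were past the threshold in one group alone, with 185 of the 393 higher and 208 lower, and 708 of the 1593 higher and 885 lower.

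The genes higher with Prozac and not in TBI were named by the smallest p between the injured groups, so their values are a description. Cnpy3, a chaperone of Toll-like receptors, was at -4.51, -4.78 and -4.58 with Prozac, -5.57 and -5.43 in Sham and -5.03, -5.08 and -5.22 in TBI. The 3 groups did not overlap. It was 0.88 above Sham (adjusted p = 0.00184, limma) with 0.39 (0.0562) for TBI, and 0.48 above TBI (unadjusted p = 0.00116, adjusted 0.23). Glb1, the lysosomal beta-galactosidase, was at -3.61, -3.65 and -3.55 with Prozac, -4.53 and -4.39 in Sham and -4.10, -4.05 and -4.18 in TBI (0.86 and 0.35). Nlgn3, the synaptic adhesion protein neuroligin 3, was at -4.07, -4.41 and -4.56 with Prozac, -5.14 and -4.79 in Sham and -4.94, -5.09 and -4.92 in TBI (0.62 and -0.02).

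The others were Disp2 (0.60), the RNA-binding Tsn (0.74), Cttnbp2 (0.60, another probe -0.54), the splicing factor Tra2b (0.74) and Gria1. All 8 had adjusted p between 0.23 and 0.34 in TBI+Prozac against TBI. After quantile normalization Disp2 (adjusted p = 0.138), Tsn (0.0943), Cttnbp2 (0.221) and Nlgn3 (0.172) did not pass against Sham by limma, and Cttnbp2 and Nlgn3 passed in 0 of the 5 fits that left out an array. The 8 lower ones were Sgcb, St3gal5, Zfp213, Thnsl2, Capns2, Acot4, Slc25a42 and Ezh1, with differences from Sham of -0.37 to -1.29. Sgcb, a sarcoglycan with another probe at 0.50, was at -1.22, -2.49 and -2.34 with Prozac, -1.09 and -0.36 in Sham and -1.66, -0.74 and -1.13 in TBI. TBI+Prozac replicate 1, which shared the slide of the TBI arrays, lay among them, and within that slide the difference from TBI was -0.04.

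**Figure D4:**
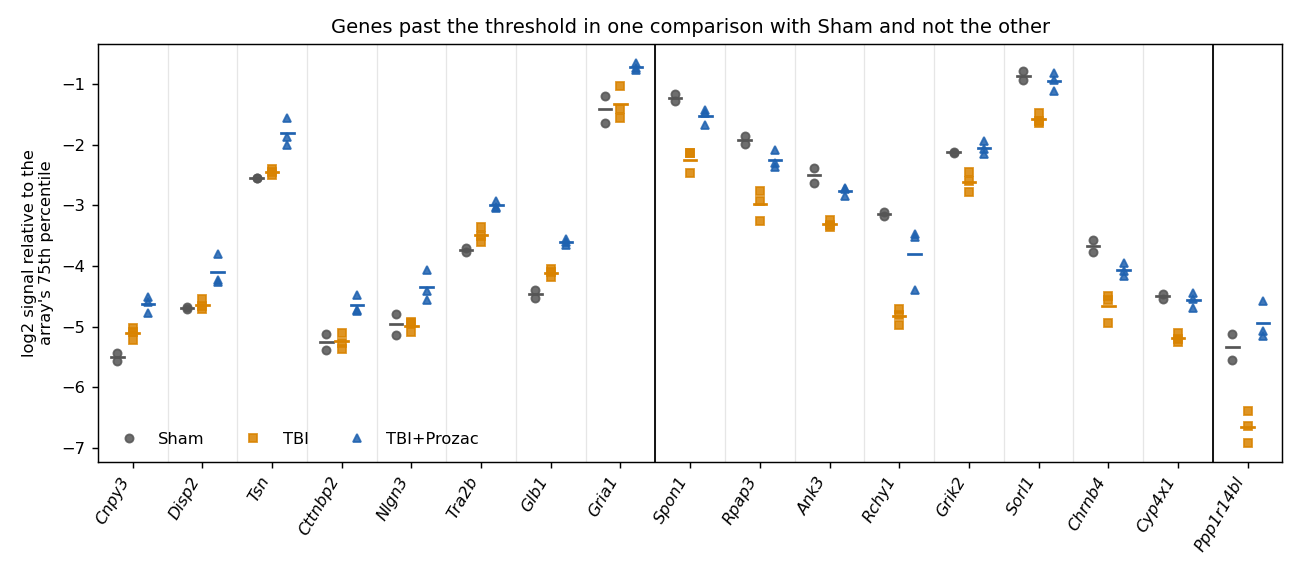
Relative log2 signal per array of 8 genes higher than Sham with Prozac and not in TBI (left), 8 lower than Sham in TBI and not with Prozac (middle) and Ppp1r14bl (right), with Sham as grey circles, TBI as orange squares, TBI+Prozac as blue triangles and group means as short bars. The genes were chosen by the smallest p between TBI+Prozac and TBI, and Ppp1r14bl because it passed that test. The separation of blue from orange therefore follows from the choice. On the left the blue triangles lie above the other groups, and in the middle and on the right the orange squares lie below them.

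Genes lower than Sham in untreated TBI and not past the threshold with Prozac included neuronal membrane and receptor genes. They too were named by the smallest p between the injured groups, so the distance of TBI from TBI+Prozac follows from that choice. Spon1, the matrix protein F-spondin, was at -1.68, -1.47 and -1.42 with Prozac, -1.28 and -1.15 in Sham and -2.14, -2.46 and -2.14 in TBI, with -0.30 against Sham (adjusted p = 0.224, limma) and -1.03 (0.00142) for TBI. Another Spon1 probe was higher than Sham with Prozac (0.90), so the probes disagree. Ank3, the axon initial segment scaffold ankyrin G, was at -2.74, -2.84 and -2.71 with Prozac, -2.63 and -2.38 in Sham and -3.35, -3.24 and -3.33 in TBI (-0.26 and -0.80). The TBI arrays lay below all others. Grik2, a kainate receptor subunit, was 0.07 with Prozac and -0.48 in TBI, and 0.56 between the injured groups (unadjusted p = 0.000568, adjusted 0.218, limma); its sign against Sham turned with normexp and every other scaling tried. Sorl1, the sorting receptor of the amyloid precursor, was -0.09 and -0.71.

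The remaining ones were Rpap3 (-0.33 and -1.06), Rchy1, a ubiquitin ligase (-0.66 and -1.69), the nicotinic subunit Chrnb4 (-0.407 and -0.996) and Cyp4x1 (-0.07 and -0.69). After quantile normalization, Ank3 (adjusted p = 0.0163), Rpap3 (0.0154), Rchy1 (0.0299) and Chrnb4 (0.00348) were also lower than Sham with Prozac by limma, so that 4 of these 8 genes leave the class under that scaling. The immediate early gene Nr4a1, named from its list, was at -0.60, -0.88 and -0.80 with Prozac, -0.58 and -0.55 in Sham and -1.44, -1.44 and -1.30 in TBI. It fell in TBI (-0.83, adjusted p = 0.00603) and not with Prozac (-0.19, 0.475), with 0.63 between the injured groups (unadjusted p = 0.00103, adjusted 0.23, limma). In the other direction, the genes named from the 158 probes higher in TBI and not past the threshold with Prozac included the collagen Col7a1 (1.25 in TBI, 0.65 with Prozac) and the binding protein Igfbp3 (0.86 and 0.58).

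The only probe that passed in TBI+Prozac against TBI was that of Ppp1r14bl. It was at -4.58, -5.07 and -5.16 with Prozac, -5.54 and -5.12 in Sham and -6.91, -6.40 and -6.63 in TBI, where no array was above background. TBI+Prozac overlapped Sham and lay above TBI by 1.71 (adjusted p = 0.0259, limma), at least 2.37-fold. It was 2.07 within the slide that held TBI+Prozac replicate 1 and the TBI arrays. The call was absent with normexp, with quantile normalization, with the replicate number as a block, in a fit of the 2 groups alone, and without TBI+Prozac replicate 2, TBI replicate 1 or TBI replicate 2.

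Of 15 genes that the study discussed for its drugs, 3 were higher than Sham with Prozac and 2 in TBI. Capn2, calpain 2, a calcium-activated protease, was at 0.71, 0.58 and 0.90 with Prozac, -0.02 and -0.22 in Sham and 0.512, 0.998 and 0.814 in TBI. It rose in both (0.85 and 0.89, adjusted p = 0.00789 and 0.00462, limma), with an adjusted p of 0.0708 without Sham replicate 2. Itgam and Gria1 are given above. Bdnf, the neurotrophin, was at -3.31, -2.93 and -3.06 with Prozac, -3.70 and -4.15 in Sham and -3.74, -3.73 and -3.26 in TBI. The TBI+Prozac arrays lay above Sham and overlapped TBI, and the difference from Sham did not pass (0.83, adjusted p = 0.317, limma). Creb1 (0.46), Akt1 (0.37), Akt2 (0.12), Capn1 (0.22), Gria2 (0.11), Gria3 (-0.14, another probe 0.17), Gria4 (-0.42), Vegfa (-0.35, other probes -0.19 and 0.74), Nr3c1 (-0.50) and Nr2e1 (0.12) did not pass either. Creb1, Akt2, Gria2 and Nr2e1 changed sign under another scaling, and in the CREB, AKT and MAP kinase list 0 of 23 genes passed in either comparison by limma, with 6 above and 0 below Sham at an unadjusted p under 0.05 for Prozac.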

How the data were processed

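Gene expression was measured on 1-colour Agilent rat arrays of 14 hippocampal RNAs in 5 groups (2 Sham, 3 in each other group); groups and replicate numbers came from the sample titles. The authors read the scans with Agilent Feature Extraction 11.5.1.1, and the deposited scanner files hold background-subtracted spot intensity on a linear scale and, as values of another kind, 0 or 1 flags per spot. The deposited series table holds the authors' intensity per probe divided by 1 constant per array, and was used as an alternative. Per the study's methods that constant is the 75th percentile of detected probes. In TBI+Prozac against Sham the series table gave 3486 calls, the percentile over all probes 3548 and that over detected probes 2579. Which percentile the authors' constant was, was not tested. The miRNA arrays were not used here.

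Control spots and outlier-flagged spots were left out, a probe's other spots were averaged, signals were scaled to the 75th percentile over the array's detected probes (over 0.5 of spots flagged as well above background), and log2 was taken. Probes detected throughout 1 or more groups were kept (17322 of 30367), none saturated (0). Differences were tested with lmFit and eBayes of limma 3.58.1 (R 4.3.3) in 1 fit of all 14 arrays, two-sided, adjusted by Benjamini-Hochberg over all kept probes at 0.05. The fit was tested on simulated data. RefSeq symbols (GRCr8) matched 18643 probes by accession and 11724 had none; 11902 kept probes covered 10220 genes. For a gene with several probes, the brightest was used in the lists, and other probes of opposite sign are given beside the gene for those chosen by the rule below. Of 999 list genes, 797 were kept, 147 were filtered out and 55 had no probe of that symbol.

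Genes were named by rule: the 10 highest and lowest differences and the 5 largest bounds each way, up to 4 list members per direction and defining members, the 8 smallest p between injured groups in each class called in 1 comparison with Sham, and the genes the study discussed. The 10 highest and lowest came from probes past the threshold, above background on all 5 arrays and without overlap of TBI+Prozac and Sham. Some of the genes this rule names are not reported here. The members and lists were chosen with earlier results of these data known, and p-values measure the spread between single rats. A gene not above background in a group has a bound only. Alternatives were other background corrections, scalings, filters, fits, a slide or replicate block, the methods' t-test (fold limit 1.2) and leaving out each array. Normexp (offset 50) used the median spot signal, because the files used here hold no mean signal column. The differences within 1 slide were added after seeing the data.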

Additional observations from a re-analysis of the deposited data

Results flagged for a closer look

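The difference of Ppp1r14bl between TBI+Prozac and TBI, 1.71 on the log2 scale (adjusted p = 0.0259, limma), was singled out because it was the 1 probe whose 2 differences from Sham, 0.39 with Prozac and -1.32 in TBI, differed by the direct test of the injured groups. No TBI array was above background for this probe, and the part of the low signal in the result was not tested.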

How the results depend on the processing

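The comparisons rest on 2 Sham rats, whose slide and scan day cannot be told apart from injury, and dim probes carry bounds only. For TBI+Prozac against Sham, 2579 calls became 1500 with no filter on dim probes, 4134 by the methods' t-test and 1 by that test after Benjamini-Hochberg adjustment, and 711 to 2242 when an array was left out. For TBI against Sham, 2879 became 4467 with quantile normalization, 4446 with the percentile over all probes, 4392 in the series table, 1912 with no filter, 1540 in a fit of the 2 groups, 0 by the adjusted t-test (3031 unadjusted) and 1268 to 2982 when an array was left out. For TBI+Prozac against TBI, the 1 call became 0 with normexp, quantile normalization, or the filter to probes above background on all arrays, 2 with the percentile over all probes, in the series table and with no filter, 7 with slide as a fixed term, 1091 by the t-test, and 0 to 121 when an array was left out (121 without TBI+Prozac replicate 1). Replicate numbers do not pair the rats: deviations of same-numbered arrays correlated at -0.192 to 0.0454 and of others at -0.191 to 0.192. With the replicate block the counts were 1976, 2388 and 0. A random slide block, with a consensus correlation of -0.0579, gave 3008 calls for TBI+Prozac against Sham.

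These differences from Sham changed sign, and the cause was not tested. With normexp they were Grik2 (-0.042), Col7a1 (-0.024), Ppp1r14bl (-0.14), Icam2 (-0.019), Creb1 (-0.27), Akt2 (-0.21), Nr2e1 (-0.17), P2ry12 (-0.0703) and the median of the neurotrophin and growth factor list (-0.0134). With quantile normalization, the all-probe percentile and the series table they were Grik2 (-0.14, -0.12 and -0.12), Akt2 (-0.10, -0.0697 and -0.0749), Nr2e1 (-0.0724, -0.0694 and -0.0745) and P2ry12 (-0.17, -0.17 and -0.18), and with the last 2 of these Gria2 (-0.0853 and -0.0908). When an array was left out, the range was -0.0518 to 0.294 for Akt2, -0.292 to 0.0118 for Gria3, -0.0258 to 0.269 for Nr2e1 and -0.735 to 0.769 for P2ry12 (lowest, for Gria3 highest, without Sham replicate 2), -1.12 to 0.231 for Tmem119 and -0.18 to 1.15 for Tnf (crossing 0 without Sham replicate 1), and -0.887 to 0.0164 for Nr3c1 (highest without TBI+Prozac replicate 1). Between the injured groups, Slc25a42 ranged from -0.427 to 0.036 (highest without TBI+Prozac replicate 1), Ezh1 was 0.0494 with normexp and Sypl2 0.0507 with slide as a fixed term. Of the 130 named genes called in TBI+Prozac against Sham, 50 passed in all 5 fits that left out an array, 77 did not pass without Sham replicate 1, 10 not with quantile normalization and 29 not with normexp, where 1 more (Icam2) changed sign.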
